A study of Rattus norvegicus with 4 samples.

Results

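A set of 74 overlapping small RNA sequences, which all lie on a single 84-base stretch, was followed through 4 small RNA libraries of rat hippocampus. The set was built by joining sequences of the deposited table of counts that share any identical run of 20 bases, directly or through other sequences, and by taking the family that contains novel_9668_x200. It holds 74 of the 3129 sequences in the table, which fell into 307 such families. The stretch was recognised as part of the 18S rRNA from general knowledge only, because no ribosomal RNA reference was at hand, and this name is provisional. The same conserved bases occur in the 18S rRNA of other animals, so the sequences alone do not show that the RNA came from the rat. Of 1143 rat miRNA entries and 33469 promoter windows of RefSeq, 0 shared a 20-base run with the stretch.

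The libraries came from RNA immunoprecipitation (RIP), in which an antibody pulls down a protein together with its bound RNA, out of hippocampal CA1 tissue of male Wistar rats, 7 to 8 weeks of age. The HPC0h library bears a time of 0 h and an abbreviation that its labels do not spell out, the tGCI26h library bears transient global cerebral ischemia and a time of 26 h, and the Sham library is that of the sham group. The IgG library is the control for the antibody, and its labels do not say which animals it came from. The series names Piwil2 as the protein pulled down in the other 3. The event from which the hours were counted is not given. The design text gives 3 replicates for each group, while the libraries analysed here number 1 per group. Pooling of animals is not mentioned by the labels. Every difference below is therefore between single libraries and carries no p-value. The intervals are exact 95% Clopper-Pearson intervals or are built from them, and they cover counting error only, since the labels mention no molecular identifiers that would mark PCR copies.

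The 18S rRNA is the RNA of the small ribosomal subunit and is among the most abundant RNAs of any cell, so fragments of it are found in nearly all small RNA libraries. PIWI proteins such as Piwil2 bind piRNAs, which silence transposons in the germ line of mammals. Primary piRNAs mostly begin with U, written T in the deposited sequences, and secondary piRNAs made by the ping-pong cycle mostly carry A at the tenth base. None of the family's sequences carried a catalogued piRNA name: 0 of 74 had a name of the rno_piR type.

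The sequences that carried most tags are shown because the libraries differed in where the ends of these members fell. Bases are numbered from 1 at the 5′ end of the assembled stretch. Capitals mark positions 24 to 54, the 31 bases that the 7 leading members have in common.
Assembled stretch (1 to 84): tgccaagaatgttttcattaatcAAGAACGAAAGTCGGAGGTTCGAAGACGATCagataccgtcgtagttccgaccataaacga
novel_646_x2358 (16 to 54): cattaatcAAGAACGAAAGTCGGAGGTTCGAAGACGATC
novel_735_x2098 (19 to 57): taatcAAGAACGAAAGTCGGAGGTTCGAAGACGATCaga
novel_5688_x328 (20 to 58): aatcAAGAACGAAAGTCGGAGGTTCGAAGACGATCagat
novel_8226_x234 (21 to 59): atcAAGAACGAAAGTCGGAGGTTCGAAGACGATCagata
novel_9668_x200 (22 to 60): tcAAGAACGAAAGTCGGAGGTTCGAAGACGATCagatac
novel_3352_x548 (23 to 60): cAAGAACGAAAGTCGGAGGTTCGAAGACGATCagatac
novel_4408_x423 (24 to 60): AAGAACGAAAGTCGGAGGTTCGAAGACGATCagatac
Another member, novel_5975_x312, is shown because it led the small group at the 3′ side of the stretch, which overlaps the capitals by their last bases only.
novel_5975_x312 (44 to 82): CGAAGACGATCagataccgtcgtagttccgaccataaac

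All 74 members matched the stretch in full, without a mismatch. They were 29 to 39 nt long, and 39 nt was also the longest length in the whole table. Of the 7 leading members, which were all those with at least 5% of the family's counts in any library, 5 had this length. For a 39-nt member the 5′ and 3′ ends move together, so a shift of one cannot be separated from a shift of the other, and whether the RNA ran on beyond the listed end is not shown. Members starting at positions 12 to 27 numbered 64, and a further 6 started at positions 44 to 47. The remaining 4 started at positions 1, 8, 8 and 30.

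**Figure D1:**
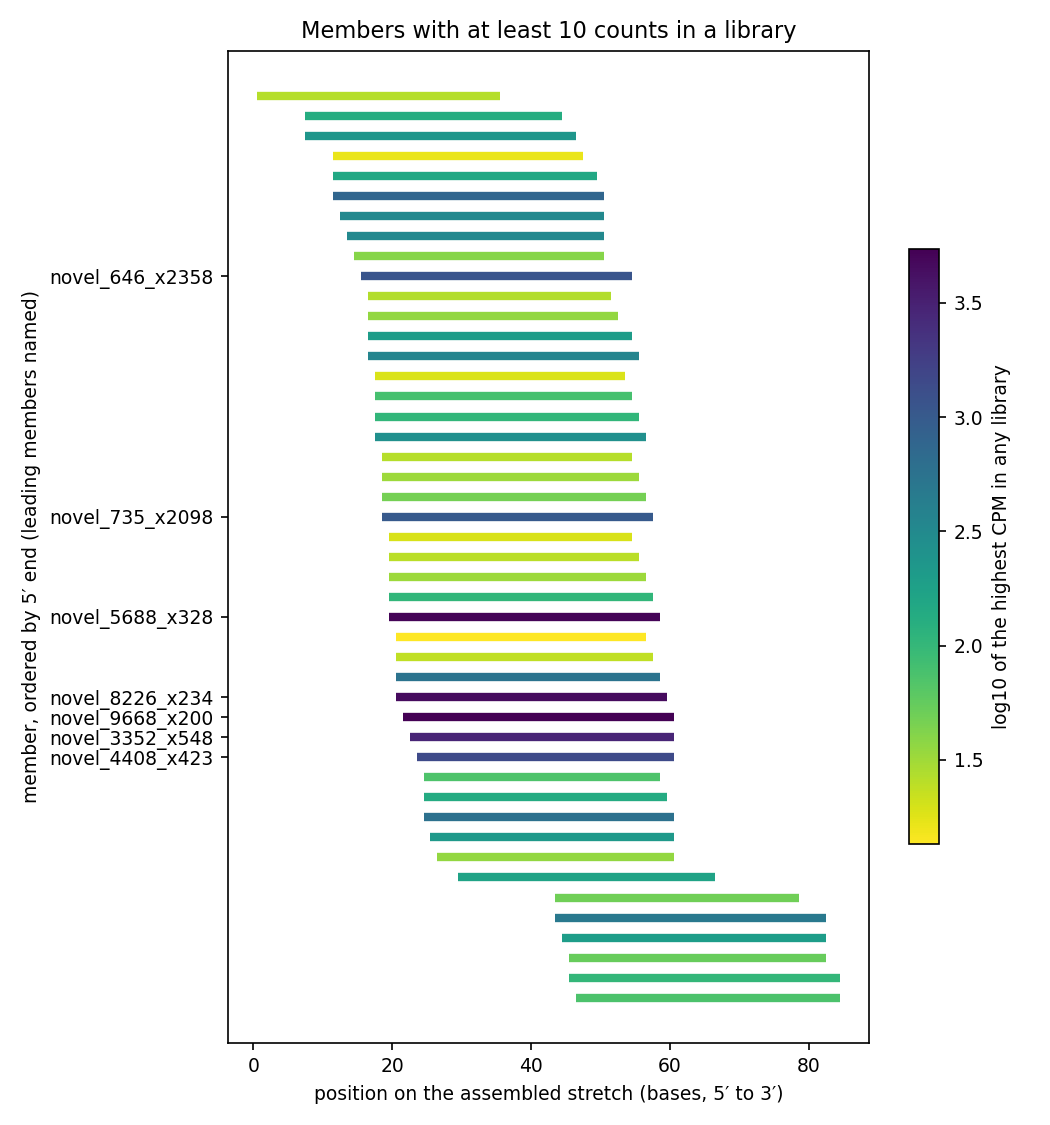
Each bar is 1 of the 46 members with at least 10 counts in at least 1 library, drawn from its first to its last position on the assembled stretch (x axis, bases) and ordered by 5′ end (y axis); darker colour stands for a higher maximum CPM (counts per 1000000 counts of the library, log10 scale). Most bars slide along positions 12 to 60, the bars starting at 22 to 24 that are named share the 3′ end at position 60, and the small group at the lower right starts at positions 44 to 47.

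The deposited counts of nested sequences were not separate from each other. Wherever a listed sequence lay inside a longer one, the longer one had at least the same count: this held in all 26420 cases over the whole table, with 0 exceptions, and in all 1065 cases within the family. In Sham, novel_3756_x492 (13 to 50) and novel_3660_x504 (14 to 50) each had 51 counts. A sum over the family therefore counts some tags several times, and intervals on such sums are too narrow. A residual count was computed for each sequence as its count minus the residual counts of all listed sequences inside it, so that a tag of a listed sequence enters a sum once. A tag whose own sequence was not listed can still be counted in several overlapping sequences, so intervals on residual sums may also be too narrow. Residual tags are also placed by the listed sequence. Their ends, lengths, bases and coverage below are those of listed sequences, and the ends of the tags themselves are not shown. The residual count was below 0 in 124 of 9346 listed values over the table and in 5 of 202 in the family. Library totals were 830634 counts in HPC0h, 222511 in tGCI26h, 159215 in Sham and 668857 in IgG, and the residual totals were 479900, 152269, 105348 and 409993 tags in the same order. Sham thus gave the least precise values. The columns of the 3 Piwil2 libraries were tied to their samples by abbreviated names that match 1 title each in part.

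By library totals the family held a similar share of tags in tGCI26h and Sham and a smaller share in HPC0h than in either, an order that turned when another abundant RNA family was left out of the totals. Its summed counts were 14001 in HPC0h, 5370 in tGCI26h, 3616 in Sham and 12676 in IgG. They made up 1.69% of HPC0h counts (interval 1.66 to 1.71), 2.41% of tGCI26h counts (2.35 to 2.48), 2.27% of Sham counts (2.20 to 2.35) and 1.90% of IgG counts (1.86 to 1.93). By residual counts the shares were 1.84% in HPC0h, 2.36% in tGCI26h, 2.31% in Sham and 1.85% in IgG. With residual counts the HPC0h share was therefore at the level of the IgG control.

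**Figure D2:**
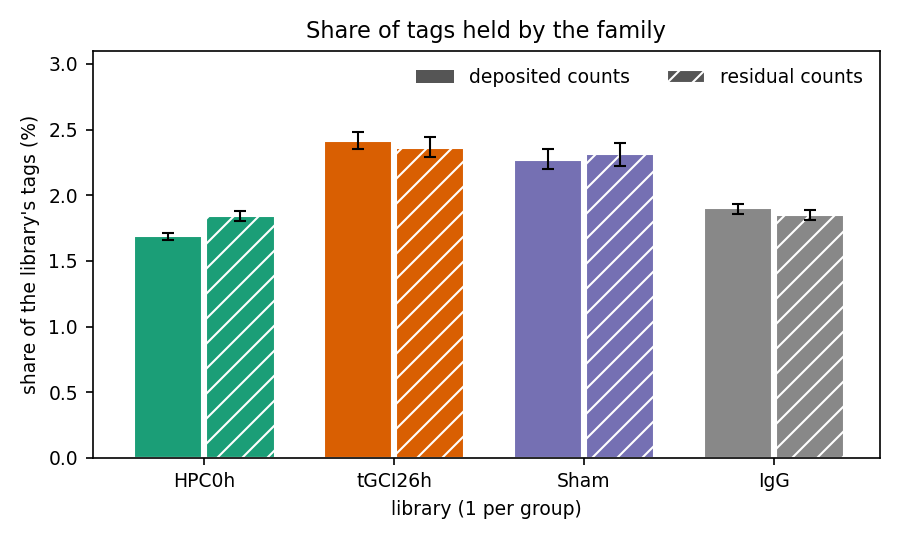
Bars give the family's share of each library's tags (y axis, percent) from deposited counts (plain) and from residual counts (hatched), for the libraries HPC0h, tGCI26h, Sham and IgG; error bars are exact 95% intervals for counting error only. By these library totals the tGCI26h and Sham bars stand above the HPC0h and IgG bars; the place of HPC0h changed with totals that leave out the 28S 5′ family.

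In tGCI26h the share was 1.06 times that in Sham (interval 1.02 to 1.11) by counts and 1.02 times (0.973 to 1.08) by residual counts. This small difference had no fixed direction, because TMM factors gave 0.922 and median-of-ratios size factors 0.914. HPC0h had 0.698 times the share of tGCI26h (0.677 to 0.721) and 0.742 times that of Sham (0.715 to 0.770), or 0.778 and 0.797 times by residual counts. Both ratios depended on a different RNA family: with library totals that leave out the family at the 5′ end of the 28S rRNA, they became 1.02 and 1.05. That family of 239 sequences brought the HPC0h total down to 390939 counts, the tGCI26h total to 152356 and the Sham total to 106391 when removed.

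Against the IgG control, the share was 0.889 times as large in HPC0h (0.868 to 0.911), 1.27 times in tGCI26h (1.23 to 1.31) and 1.20 times in Sham (1.15 to 1.24). By residual counts these ratios were 0.995 (0.964 to 1.03), 1.28 (1.23 to 1.33) and 1.25 (1.19 to 1.31). The HPC0h ratio turned to 1.11 with totals that leave out the 28S 5′ family. The IgG library contained the family's leading members at levels in CPM, counts per 1000000 counts of the library, of the same order as the Piwil2 libraries, so the same sequences were also recovered in the control.

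Within the family the leading members took turns at the top. The 7 leading members held 78.3% of the family's counts in HPC0h, 80.5% in tGCI26h, 81.8% in Sham and 75.2% in IgG. In HPC0h, novel_5688_x328 came ahead of novel_8226_x234 and novel_9668_x200, with 24.4% of the family's counts (23.7 to 25.1), 14.5% (14.0 to 15.1) and 13.9% (13.3 to 14.5). In tGCI26h the order was novel_9668_x200 with 22.2% (21.1 to 23.3), novel_8226_x234 with 18.8% (17.8 to 19.9) and novel_5688_x328 with 12.9% (12.0 to 13.9). In Sham, novel_9668_x200 with 23.9% (22.6 to 25.4) and novel_5688_x328 with 22.6% (21.3 to 24.0) had overlapping intervals and stood above novel_8226_x234 with 13.1% (12.1 to 14.3). In IgG, novel_5688_x328 with 17.7% (17.0 to 18.3) and novel_9668_x200 with 17.0% (16.4 to 17.7) also had overlapping intervals. The counts of novel_9668_x200 include tags of novel_3352_x548 and novel_4408_x423, which lie inside it, and by residual counts novel_5688_x328 or novel_8226_x234 led in every library.

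novel_9668_x200 (22 to 60) had 1945 counts in HPC0h, 1192 in tGCI26h, 866 in Sham and 2158 in IgG. This is 2342 CPM in HPC0h, 5357 in tGCI26h, 5439 in Sham and 3226 in IgG. HPC0h had the lowest level, and by library totals tGCI26h and Sham were nearly level with each other. The ratio of CPM was 0.437 for HPC0h over tGCI26h (0.406 to 0.470), 0.431 for HPC0h over Sham (0.397 to 0.467) and 0.985 for tGCI26h over Sham (0.902 to 1.08), which was 0.847 with median-of-ratios size factors.

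novel_5688_x328 (20 to 58), which begins and ends 2 bases earlier, had 3412 counts in HPC0h, 694 in tGCI26h, 819 in Sham and 2239 in IgG. This is 4108 CPM in HPC0h, 3119 in tGCI26h, 5144 in Sham and 3348 in IgG. Here tGCI26h had the lowest level, and Sham the highest by library totals, although HPC0h over Sham was 1.13 with totals that leave out the 28S 5′ family. The ratio of CPM was 0.606 for tGCI26h over Sham (0.547 to 0.672) and 1.32 for HPC0h over tGCI26h (1.21 to 1.43), so the pair differed in opposite ways between HPC0h and tGCI26h.

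novel_8226_x234 (21 to 59) lies between them, and had 2035 counts in HPC0h, 1010 in tGCI26h, 475 in Sham and 1590 in IgG. It was at 2450 CPM in HPC0h, 4539 in tGCI26h, 2983 in Sham and 2377 in IgG, with tGCI26h above the other 3 libraries. Its ratio was 1.52 for tGCI26h over Sham (1.36 to 1.70) and 0.540 for HPC0h over tGCI26h (0.50 to 0.583).

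novel_735_x2098 (19 to 57) differed most among the leading members. It had 844 counts in HPC0h, 226 in tGCI26h, 41 in Sham and 436 in IgG. This is 1016 CPM in HPC0h, 1016 in tGCI26h, 258 in Sham and 652 in IgG, so Sham stood apart below the other 3 libraries, the control included. The ratio was 3.94 for tGCI26h over Sham (2.82 to 5.64), 3.95 for HPC0h over Sham (2.88 to 5.54) and 0.395 for Sham over IgG (0.280 to 0.545). These ratios share the low Sham value.

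novel_646_x2358 (16 to 54), the leading member with the earliest ends, had 585 counts in HPC0h, 247 in tGCI26h, 103 in Sham and 660 in IgG. It was at 704 CPM in HPC0h, 1110 in tGCI26h, 647 in Sham and 987 in IgG. novel_3352_x548 (23 to 60) had 1368 counts in HPC0h, 645 in tGCI26h, 465 in Sham and 1628 in IgG, and novel_4408_x423 (24 to 60) had 767, 311, 188 and 817 counts in the same order. Both had their lowest CPM in HPC0h by library totals, but for novel_4408_x423 HPC0h over Sham was 0.782 by these totals and 1.11 with totals that leave out the 28S 5′ family, which puts Sham lowest.

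**Figure D3:**
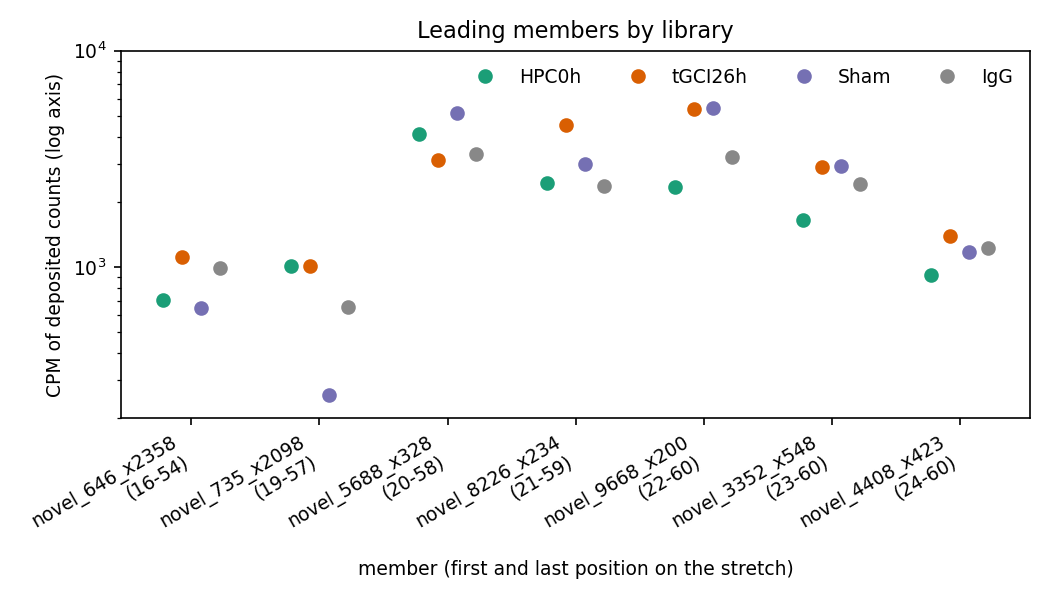
Points give the CPM (on a log axis) of the 7 leading members in the libraries HPC0h, tGCI26h, Sham and IgG, with members ordered by 5′ end. Sham lies far below the others at novel_735_x2098, and HPC0h lies below the others at novel_9668_x200, novel_3352_x548 and, by library totals but not with totals that leave out the 28S 5′ family, novel_4408_x423.

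Ratios between members of the same library do not depend on how libraries are scaled. The residual tags of novel_9668_x200 per residual tag of novel_5688_x328 were 0.200 in HPC0h (577 and 2888 tags), 0.963 in tGCI26h (547 and 568), 0.544 in Sham (401 and 737) and 0.282 in IgG (530 and 1881). By deposited counts this ratio was 0.570 in HPC0h, 1.72 in tGCI26h, 1.06 in Sham and 0.964 in IgG, and by the authors' normalized values it was 0.590, 1.71, 1.06 and 0.980. All 3 sets of values gave tGCI26h the highest ratio and HPC0h the lowest, with Sham between them. The residual ratio in tGCI26h was 1.77 times that in Sham (1.49 to 2.10), and in HPC0h it was 0.207 times that in tGCI26h (0.179 to 0.241).

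Sorted by 3′ end, the classes of members hold mostly the same leading members, so they are not separate evidence: novel_5688_x328 held 2888 of the 3326 residual tags ending at 58 in HPC0h, 568 of 682 in tGCI26h, 737 of 803 in Sham and 1881 of 2200 in IgG. Members ending at position 58, which are novel_5688_x328, novel_8434_x228 and novel_14638_x138, held 37.7% of the family's residual tags in HPC0h (36.7 to 38.7), 19.0% in tGCI26h (17.7 to 20.3), 33.0% in Sham (31.2 to 35.0) and 29.0% in IgG (28 to 30.1). The 8 members ending at position 59 or 60 held 38.8% in HPC0h (37.8 to 39.8), 57.5% in tGCI26h (55.8 to 59.1), 52.0% in Sham (50.0 to 54.0) and 43.8% in IgG (42.7 to 44.9). Members ending at 58 thus held the smallest share in tGCI26h, and members ending 1 or 2 bases further on the largest. HPC0h had the reverse. These are ends of listed members, since a tag of an unlisted sequence can enter longer members around it.

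Members ending at 59 or 60 were set against those ending at 58. Their residual tags per residual tag of the latter were 1.03 in HPC0h, 3.03 in tGCI26h, 1.57 in Sham and 1.51 in IgG. These ratios stood to each other as 1.93 for tGCI26h over Sham (1.70 to 2.19), 0.339 for HPC0h over tGCI26h (0.307 to 0.375) and 0.654 for HPC0h over Sham (0.591 to 0.724). Against the control it was 0.682 for HPC0h (0.634 to 0.733), 2.01 for tGCI26h (1.81 to 2.23) and 1.04 for Sham (0.939 to 1.16). For Sham and IgG this ratio did not differ beyond counting error, while the shares ending at 58 and at 59 or 60 were each higher in Sham than in IgG. With 1 library per group, differences of this size may lie within the spread between libraries of a group, which was not measured.

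At position 59 tGCI26h stood above the others: novel_8226_x234 and the other member ending there held 17.9% of residual tags in HPC0h (17.1 to 18.7), 24.9% in tGCI26h (23.5 to 26.3), 16.8% in Sham (15.4 to 18.4) and 16.6% in IgG (15.7 to 17.4). At position 60 the members held 20.9% in HPC0h (20.1 to 21.8), 32.6% in tGCI26h (31.0 to 34.1), 35.1% in Sham (33.2 to 37.1) and 27.3% in IgG (26.3 to 28.3), so tGCI26h and Sham stood together above the others there. Members ending at position 57, mostly novel_735_x2098, held 9.13% in HPC0h, 6.11% in tGCI26h, 1.60% in Sham and 5.46% in IgG.

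**Figure D4:**
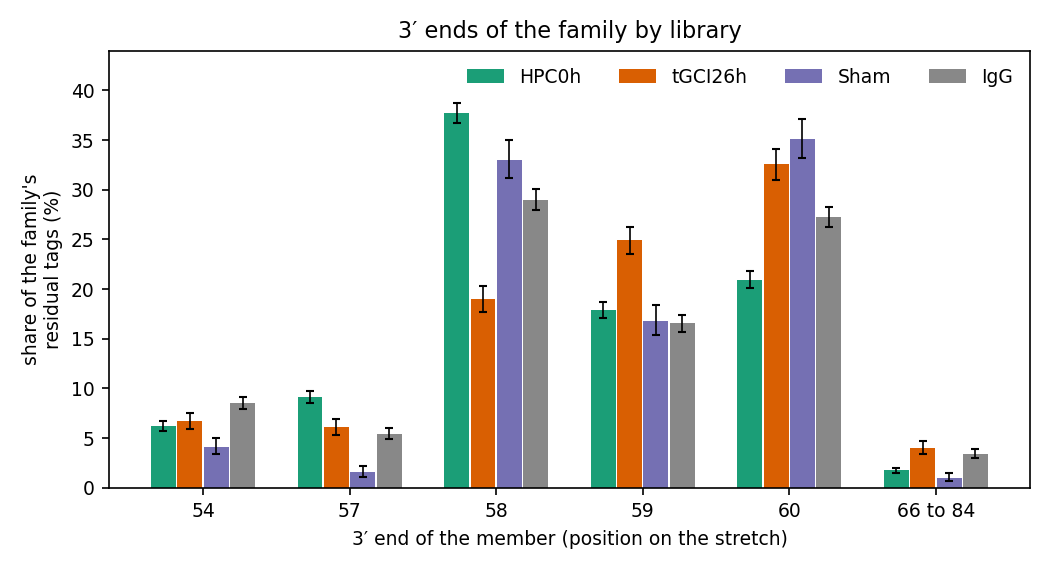
Bars give the share of the family's residual tags (y axis, percent) in members with the 3′ end at the named position of the stretch (x axis; the last group joins all ends from 66 on), for HPC0h, tGCI26h, Sham and IgG; error bars are exact 95% intervals for counting error only. The tGCI26h bar is the lowest at position 58, with 19.0%, and the highest at position 59, with 24.9%.

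Coverage by listed members fell in steps from position 58 to 61. Position 58 lay inside 78.3% of residual tags in HPC0h, 80.4% in tGCI26h, 86.0% in Sham and 76.3% in IgG. Position 59 lay inside 40.6%, 61.5%, 53.0% and 47.3% in the same order, and position 60 inside 22.7%, 36.5%, 36.2% and 30.7%. Position 61 lay inside 1.75% in HPC0h, 3.97% in tGCI26h, 1.03% in Sham and 3.43% in IgG. Members that start at positions 23 to 27 and end at 60 are shorter than 39 nt, so for them the end at position 60 was not set by the length limit of the table. They include novel_3288_x560 (25 to 60) with 369 counts in HPC0h, 132 in tGCI26h, 87 in Sham and 357 in IgG, and novel_9952_x194 (27 to 60) with 20, 2, 3 and 24 counts in the same order.

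Single members were called different between a pair of libraries by a fixed rule of size: at least 10 counts in 1 of the 2 libraries, a ratio of CPM of at least 2-fold, and an interval that excludes 1. In tGCI26h over Sham, 8 of 28 measured members were higher and 2 were lower. Of all 1366 sequences measured in that pair, 27.2% were higher and 13.9% lower by library totals. The family's 28.6% higher was near this background, and its 7.14% lower was below it. The counts of 8 and 2 were the same with the 3 other scalings, but the background moved. Its share called higher was 22.1% by TMM, 22.0% by median-of-ratios and 26.6% by totals that leave out the 28S 5′ family. Its share called lower was 16.6%, 16.6% and 14.1% in the same order. By TMM and median-of-ratios the family's share called higher thus lay further above the background. The median log2 ratio of the family's measured members was 0.21, against 0.87 in the 410 measured sequences of other 18S families and 0.36 in all measured sequences.

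In HPC0h over tGCI26h, 2 of 43 measured members were higher and 9 were lower, where 21.0% of all measured sequences were higher and 21.0% lower. The family's 20.9% lower was thus at the background and its 4.65% higher was below it. The split was 6 higher and 6 lower with TMM factors (26.4% and 17.0% over all sequences), 4 and 7 with median-of-ratios size factors (24.1% and 18.7%), and 10 and 5 with totals that leave out the 28S 5′ family (34.1% and 13.1%). The median log2 ratio was 0.09 in the family, 0.05 in other 18S families and 0.12 in all sequences. In HPC0h over Sham, 4 of 43 were higher and 6 lower (background 25.4% and 15.9%), with a median of 0.34 in the family, 0.76 in other 18S families and 0.58 in all sequences. With totals that leave out the 28S 5′ family, the split was 12 higher and 4 lower, where 41.2% of all measured sequences were higher and 9.85% lower. These 3 comparisons share libraries with each other and are not separate evidence. In HPC0h over Sham, 16 of 36 measured members that start before position 30 met the count minimum in HPC0h alone. From position 30 on, 6 of 7 did. In HPC0h over tGCI26h these were 14 of 36 and 1 of 7. Such members were measured only through HPC0h, the deepest library. The medians and the numbers called higher are therefore no support for a higher level in HPC0h.

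Against IgG, 2 of 46 measured members were higher in HPC0h and 7 lower (background 17.8% and 17.1%), 3 of 43 were higher in tGCI26h and 3 lower (16.6% and 19.5%), and 2 of 43 were higher in Sham and 9 lower (12.5% and 28.6%). By library totals, the shares of members called higher and of those called lower were both below the background in all 3 comparisons, which share the IgG library. The shares called lower were 15.2% in HPC0h, 6.98% in tGCI26h and 20.9% in Sham. With totals that leave out the 28S 5′ family the splits were 4 higher and 5 lower in HPC0h (24.7% and 11.6% over all sequences), 1 and 7 in tGCI26h (13.4% and 26.7%) and 2 and 12 in Sham (10.7% and 34.3%). With TMM factors they were 3 and 6 in HPC0h (19.9% and 14.6%), 2 and 6 in tGCI26h (14.8% and 22.6%) and 2 and 7 in Sham (14.0% and 26%). Members that passed the count minimum are nested in each other, so their calls are not separate observations. In Sham over IgG, 16 of 36 measured members that start before position 30 met the minimum in IgG alone. From position 30 on, 6 of 7 did, and these 6 were all called lower, as was novel_2676_x678 (7 and 70 counts). In tGCI26h over IgG, 14 of 36 and 1 of 7 met it in IgG alone. In HPC0h over IgG, 4 of 39 measured members that start before position 30 met it in IgG alone and 3 in HPC0h alone. From position 30 on, all 7 met it in both libraries. Members that met it in a single library were measured through that library only. Their calls are no support for a direction.

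Of the 8 members called higher in tGCI26h than in Sham, 6 start at position 30 or later. Of these 6, 5 met the minimum of 10 counts in tGCI26h alone, so their direction was largely fixed by the minimum and their number is no support for a difference at the 3′ side. novel_5975_x312 met the minimum in both libraries, and novel_19987_x106, the seventh of the members that start there, met it in neither. The 7 members overlap and share tags: by residual counts all 7 together held 154 tags in HPC0h, 143 in tGCI26h, 25 in Sham and 260 in IgG. That is 1.75% of the family's residual tags in HPC0h (1.48 to 2.04), 3.97% in tGCI26h (3.36 to 4.67), 1.03% in Sham (0.667 to 1.51) and 3.43% in IgG (3.03 to 3.87). Set against the tags of all other members, they were 3.98 times as frequent in tGCI26h as in Sham (2.58 to 6.38) and 1.16 times as frequent as in IgG (0.939 to 1.44), which is within counting error. In HPC0h they were 0.429 times as frequent as in tGCI26h (0.339 to 0.545), 1.71 times as frequent as in Sham (1.11 to 2.73) and 0.50 times as frequent as in IgG (0.406 to 0.614). Both HPC0h and Sham thus had fewer of these tags than tGCI26h and IgG, and Sham had the fewest.

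novel_5975_x312 (44 to 82) led this group with 117 counts in HPC0h, 106 in tGCI26h, 19 in Sham and 158 in IgG. Its CPM ratio was 3.99 for tGCI26h over Sham (2.43 to 6.89), 0.296 for HPC0h over tGCI26h (0.225 to 0.388) and 2.02 for tGCI26h over IgG (1.56 to 2.60). novel_4137_x448 (46 to 84) had 27 counts in HPC0h, 12 in tGCI26h and 68 in IgG, and was not listed in Sham. Its residual counts were at or below 0 in every library, so its counts were those of sequences inside it, such as novel_7185_x264 (46 to 82) with 27, 12 and 25 counts in HPC0h, tGCI26h and IgG, which was also not listed in Sham.

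By raw counts novel_19987_x106 (47 to 84) had its highest level in the control, with 14 counts in HPC0h, 2 in tGCI26h and 49 in IgG. It was not listed in Sham. The authors' normalized table gives it 28 in HPC0h, 63 in tGCI26h, 19 in Sham and 80 in IgG, so tGCI26h lay much nearer to the control there. novel_21315_x101 (44 to 78) had 16 counts in HPC0h, 11 in tGCI26h and 27 in IgG, and was not listed in Sham either. novel_18585_x112 (30 to 66), which bridges both groups of 5′ ends, had 37 counts in HPC0h, 37 in tGCI26h, 6 in Sham and 59 in IgG. Its CPM ratio was 4.41 for tGCI26h over Sham (1.85 to 12.8) and 0.268 for HPC0h over tGCI26h (0.165 to 0.434). No fold is given against a library in which a member is not listed, since the lowest listed value was 2 and a blank does not show that no tag was present.

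**Figure D5:**
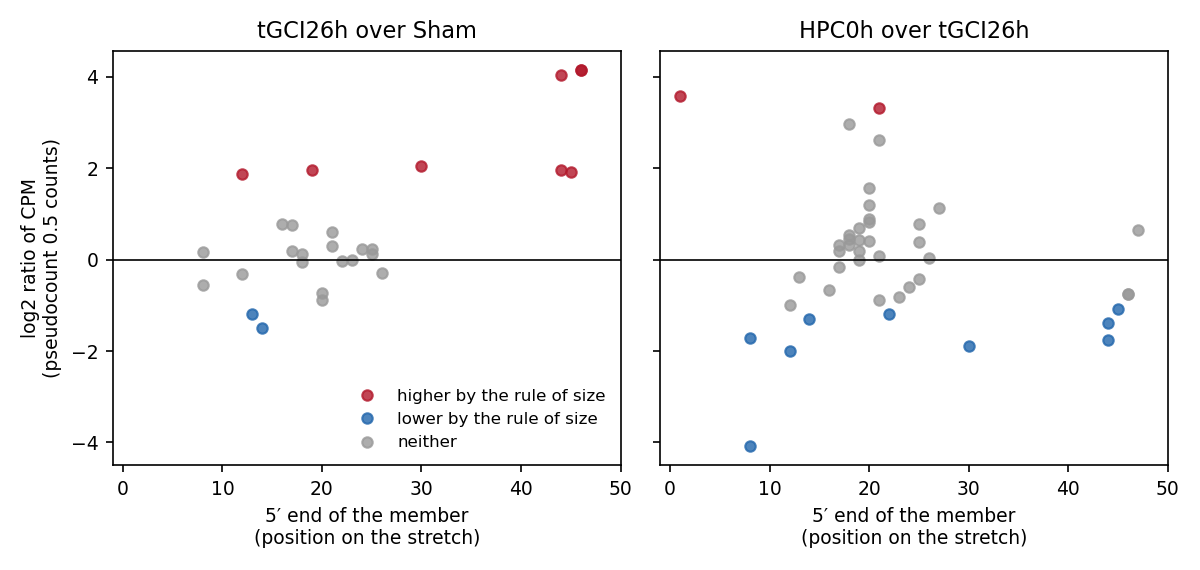
Each point is a measured member, placed by its 5′ end (x axis, position on the stretch) and by the log2 ratio of CPM with 0.5 counts added to each library (y axis), for tGCI26h over Sham (left) and HPC0h over tGCI26h (right); colour marks the call by the rule of size. Of the 6 points called higher at positions 30 and later on the left, 5 met the count minimum in tGCI26h alone, and 2, at position 46, coincide; 4 of 7 at these positions are called lower on the right. Both panels share the tGCI26h library, and points of members not listed in 1 library depend on the 0.5 counts added.

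At the 5′ side, members ending at position 50 or earlier differed between libraries in unlike ways. novel_7745_x246 (8 to 44) had 4 counts in HPC0h, 20 in tGCI26h, 21 in Sham and 25 in IgG, which is 4.82 CPM in HPC0h, 89.9 in tGCI26h, 132 in Sham and 37.4 in IgG. It was lower in HPC0h than in every other library, and its ratio was 0.129 for HPC0h over IgG (0.0326 to 0.373) and 3.53 for Sham over IgG (1.88 to 6.57). novel_9454_x204 (12 to 49) had 31 counts in HPC0h, 33 in tGCI26h, 6 in Sham and 45 in IgG, with 3.94 times the CPM in tGCI26h of that in Sham (1.63 to 11.5) and 2.20 times that in IgG (1.36 to 3.53).

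The members called lower in tGCI26h than in Sham were novel_3660_x504 and novel_3756_x492, which hold the same 51 counts in Sham. novel_3660_x504 had 38 counts in HPC0h, 25 in tGCI26h, 51 in Sham and 53 in IgG, and its ratio was 0.351 for tGCI26h over Sham (0.208 to 0.577) and 4.04 for Sham over IgG (2.70 to 6.05). novel_3756_x492 had 90 counts in HPC0h, 31 in tGCI26h, 51 in Sham and 137 in IgG, but its residual count in Sham was 0, so its call rests on the tags of novel_3660_x504. novel_7027_x269 (15 to 50) had 3 counts in HPC0h, 9 in tGCI26h and 13 in IgG, was not listed in Sham, and was lower in HPC0h than in IgG at 0.186 (0.0340 to 0.676).

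By library totals, 2 of 43 measured members were called higher in HPC0h than in tGCI26h, 4 of 43 than in Sham and 2 of 46 than in IgG. The shares over all sequences were 21.0%, 25.4% and 17.8%. With totals that leave out the 28S 5′ family, 10 and 12 of 43 were higher over tGCI26h and Sham (34.1% and 41.2% over all sequences). The calls over Sham include novel_735_x2098, novel_7185_x264 and novel_4137_x448, described above. Of these, only novel_735_x2098 met the minimum of 10 counts in both libraries. novel_14991_x135 (1 to 35), the member that begins the stretch, was called higher in HPC0h than in each other library. It had 22 counts in HPC0h and 2 in IgG, and was not listed in tGCI26h or Sham. The authors' normalized table gives it 24 in HPC0h, 4 in tGCI26h, 10 in Sham and 3 in IgG. novel_573_x2610 (21 to 57), called over tGCI26h only, had 18 counts in HPC0h and 16 in IgG and was not listed in tGCI26h or Sham. Of these counts, 7 were residual tags in both HPC0h and IgG. novel_10570_x183 (18 to 53), called over IgG only, had 14 counts in HPC0h, 3 in Sham and 3 in IgG and was not listed in tGCI26h. In all of these calls novel_14991_x135, novel_573_x2610 and novel_10570_x183 met the minimum of 10 counts in HPC0h alone. Their calls are therefore no support for a higher level in HPC0h. novel_2676_x678 (18 to 55), called lower against IgG in both tGCI26h and Sham, had 53 counts in HPC0h, 11 in tGCI26h, 7 in Sham and 70 in IgG, of which 0, 0, 0 and 14 were residual tags.

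The number of listed members had the same order as the depth of the libraries: 72 were listed in HPC0h, 41 in tGCI26h, 38 in Sham and 51 in IgG, and 36 in all 4. The 23 members listed only in HPC0h, the deepest library, had at most 4 counts each. Together they had 70 counts, which came to 8 residual tags in 4 members. Most of these listings were therefore the same few tags counted in several nested sequences.

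Tags of 39 nt and tags that begin with A were more frequent in the family than in the table as a whole in every library. Members of 39 nt held 74.3% of the family's residual tags in HPC0h, 72.9% in tGCI26h, 73.5% in Sham and 67.0% in IgG, whereas over all sequences 39-nt tags held 52.7%, 50.5%, 46.8% and 45.0% in the same order. Tags that begin with A held 65.3% in HPC0h, 54.4% in tGCI26h, 59.1% in Sham and 59.1% in IgG, against 14.0%, 16.2%, 12.9% and 14.1% over all sequences. Tags beginning with T, the base typical of primary piRNAs, held 20% in HPC0h, 25.8% in tGCI26h, 23.5% in Sham and 19.1% in IgG, against 17.8%, 28.4%, 29.2% and 27.4% over all sequences.

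Tags with A at the tenth base held 36.2% in HPC0h, 48.0% in tGCI26h, 42.2% in Sham and 44.1% in IgG, against 42.1%, 29.3%, 29.0% and 40.6% over all sequences in the same order. The family was thus below the table in HPC0h and above it in the other 3 libraries. Since all members come from 1 stretch, these base shares follow from the position of the 5′ ends, and a few members set them: novel_5688_x328 and novel_8226_x234 begin with A, and novel_9668_x200 with T; at the tenth base they carry C, G and A. They are no separate evidence on the ends. The lower share of A at the tenth base in HPC0h and the higher share in tGCI26h restate the shift between novel_5688_x328 and its neighbours.

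Other large families of 18S fragments are set beside it here. The family of novel_12320_x160, with 292 sequences, held 6.04% of counts in HPC0h, 8.07% in tGCI26h, 6.68% in Sham and 7.95% in IgG. The family of novel_5384_x347, with 137 sequences, held 1.63% in HPC0h, 2.61% in tGCI26h, 1.27% in Sham and 2.34% in IgG, so that tGCI26h was 2.05 times Sham (1.95 to 2.16). The family of novel_7652_x249, with 144 sequences, held 1.91% in HPC0h, 2.48% in tGCI26h, 1.89% in Sham and 3.35% in IgG. By library totals, the share in HPC0h over that in tGCI26h was 0.749 for the family of novel_12320_x160, 0.769 for that of novel_7652_x249 and 0.623 for that of novel_5384_x347, beside 0.698 for the family of novel_9668_x200. Another scaling multiplies all 4 of these values by the same factor. The residual tags of the family of novel_9668_x200 per residual tag of the family of novel_5384_x347 were 0.527 times as many in tGCI26h as in Sham (0.487 to 0.570). Against the family of novel_7652_x249 they were 0.881 times as many (0.818 to 0.948), and against the family of novel_12320_x160 0.890 times (0.839 to 0.944).

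Set against the control in the same way, the family of novel_9668_x200 held more tags per tag of each of these 3 families in every Piwil2 library than in IgG. The ratio to the family of novel_12320_x160 over that in IgG was 1.24 in HPC0h (1.20 to 1.28), 1.19 in tGCI26h (1.14 to 1.25) and 1.34 in Sham (1.27 to 1.41). The ratio to the family of novel_7652_x249 over that in IgG was 1.81 in HPC0h (1.74 to 1.88), 1.98 in tGCI26h (1.87 to 2.08) and 2.24 in Sham (2.11 to 2.39). For the family of novel_5384_x347 it was 1.43 in HPC0h (1.37 to 1.49), 1.18 in tGCI26h (1.12 to 1.24) and 2.23 in Sham (2.08 to 2.40). These values are independent of the scaling of libraries, but they share the single IgG library.

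A small family directly upstream, that of novel_6473_x290, ends with 12 bases that are also the first 12 bases of the stretch, too few to join it by the 20-base rule. It had 1625 counts in HPC0h, 286 in tGCI26h, 441 in Sham and 1537 in IgG. Its share was 0.464 times as large in tGCI26h as in Sham (0.398 to 0.540) and 1.52 times as large in HPC0h as in tGCI26h (1.34 to 1.73), where the family of novel_9668_x200 had 1.06 and 0.698. The other ratios were 0.706 for HPC0h over Sham (0.635 to 0.786), 1.21 for Sham over IgG (1.08 to 1.34), 0.851 for HPC0h over IgG (0.794 to 0.913) and 0.559 for tGCI26h over IgG (0.491 to 0.635), where the family of novel_9668_x200 had 0.742, 1.20, 0.889 and 1.27.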

How the data were processed

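Small RNA from 4 RIP libraries was analysed, 1 per group. Per the labels' protocols, adaptors were ligated, cDNA was amplified by PCR, and amplicons near the size of piRNA inserts were selected for Illumina HiSeq sequencing. Of software, cutadapt 1.9.3 and Novoalign 3.02.12 appear in the submitters' processing notes; what each did, which genome build was used and how tags were counted is stated by none of the sources used here. Values in the deposited raw table are raw tag counts per the file headers. The lowest was 2, and blanks were taken as 0 in ratios and described as not listed. The authors' normalized values are whole numbers of unstated scaling, were treated as a score, and served as an alternative. Empty lines, 40 among the raw and 46 among the normalized values, are not reported here.

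Families were joined by 20 shared bases. CPM used library totals of listed counts. Ratios had exact Clopper-Pearson intervals at the 95% level. The size rule was at least 10 counts, 2-fold and an interval without 1. On simulated counts it called 91.0% to 98.0% of 4-fold changes and 39.0% to 56.0% of 2-fold changes, depending on the comparison. Of unchanged sequences it called 0.874% to 1.73%. The simulated counts held neither nesting nor any spread between libraries beyond counting error. Alternatives were TMM factors (edgeR 4.0.16 in R 4.3.3), median-of-ratios size factors, totals without the 28S 5′ family, other count minimums, a 25-base rule, the normalized table, residual counts, and the family without novel_5688_x328; the last 2 were added after the data were seen. Members named singly were novel_9668_x200, those with at least 5% of the family's counts in any library, and the 3 highest and 3 lowest called in each comparison; novel_8434_x228, novel_14638_x138, novel_3288_x560 and novel_9952_x194 were named after their values were seen. The members, the other families and the alternatives were chosen with earlier results of these data known. Python 3.11.15, numpy 2.4.6 and scipy 1.17.1 were used.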

Additional observations from a re-analysis of the deposited data

How the results depend on the processing

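With 1 library per group no library could be left out and the spread within groups is unknown, and at 159215 counts Sham limits the precision of every comparison it enters. No paired analysis was possible because each group has 1 library. For the family's share, TMM factors turned tGCI26h over Sham to 0.922 and gave 0.825 for HPC0h over tGCI26h, 1.29 for Sham over IgG, 1.19 for tGCI26h over IgG and 0.981 for HPC0h over IgG. Median-of-ratios size factors turned tGCI26h over Sham to 0.914 and gave 0.771 for HPC0h over tGCI26h, 0.704 for HPC0h over Sham, 1.39 for Sham over IgG and 0.978 for HPC0h over IgG. Totals without the 28S 5′ family turned HPC0h over tGCI26h to 1.02, HPC0h over Sham to 1.05 and HPC0h over IgG to 1.11, and gave 1.05 for Sham over IgG and 1.09 for tGCI26h over IgG. These settings shift every log2 ratio of a comparison equally, by up to 0.54 for HPC0h over tGCI26h with totals without the 28S 5′ family. The normalized table gave 0.738 for HPC0h over tGCI26h, 0.794 for HPC0h over Sham, 1.12 for Sham over IgG and 1.21 for tGCI26h over IgG. Residual counts gave 0.778, 0.797, 1.25 and 0.995 for HPC0h over tGCI26h, HPC0h over Sham, Sham over IgG and HPC0h over IgG. Without novel_5688_x328 the values were 1.20 for tGCI26h over Sham, 0.607 for HPC0h over tGCI26h, 1.13 for Sham over IgG, 1.35 for tGCI26h over IgG and 0.817 for HPC0h over IgG.

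Counts of called members moved with the same settings. TMM factors gave 6 higher in HPC0h over tGCI26h and 6 lower in tGCI26h over IgG, and median-of-ratios factors gave 4 higher in HPC0h over tGCI26h. Totals without the 28S 5′ family gave 10 higher and 5 lower in HPC0h over tGCI26h, 12 higher in HPC0h over Sham, 1 higher and 7 lower in tGCI26h over IgG and 4 higher in HPC0h over IgG. With at least 50 counts, 2 of 15 measured members were higher in tGCI26h over Sham. In HPC0h over tGCI26h, 0 of 22 were higher and 4 lower. In HPC0h over Sham 1 of 23 was higher, and in Sham over IgG 1 of 24. In tGCI26h over IgG, 1 of 24 was higher and 1 lower, and in HPC0h over IgG 0 of 26 were higher and 2 lower. The 25-base rule left 68 members, since it drops the members at the 3′ side. It gave 3 of 23 higher in tGCI26h over Sham and 2 of 37 higher in HPC0h over Sham. It gave 4 of 37 lower in Sham over IgG and 4 of 40 lower in HPC0h over IgG. This rule changes only which members are counted, so the shares over all sequences by library totals given above apply. Residual counts gave 1 of 25 lower in tGCI26h over Sham, 4 of 32 higher and 5 lower in HPC0h over tGCI26h and 4 of 33 higher in Sham over IgG. For residual counts and for the minimum of 50 counts the shares over all sequences are not given, so these numbers are no result about the family. The other 14 family ratios lay inside the counting interval of the value reported, and the other 58 member counts were within 1.5 times of it. Apart from the scaling settings and the smaller numbers of members tested, the cause was not tested. The shares of 3′ ends and the ratios between members do not change with scaling.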

Other observations

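The authors' normalized table lists 76 sequences that lie on the stretch, of which 2 are absent from the raw table, with at most 2 in HPC0h and 1 in IgG. It also gives values to members that are blank in the raw table: 1 in HPC0h with a value of 2, 27 in tGCI26h with values up to 12, 7 in Sham with values up to 24 and 22 in IgG with values up to 18.

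In Sham, 17 of the family's 112 nested cases with the inner sequence listed had equal counts in both sequences, against 73 of 668 in HPC0h, 6 of 106 in tGCI26h and 2 of 179 in IgG. The members of the whole table behaved alike in that no longer sequence had fewer counts than one inside it.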
